A study of Mus musculus with 12 samples.

Results

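The 9 genes described here are the Serpina1 and Serpina3 antiproteases of the mouse liver: the 5 alpha-1-antitrypsin copies Serpina1a, Serpina1b, Serpina1c, Serpina1d and Serpina1e, and the 4 antichymotrypsin relatives Serpina3n, Serpina3m, Serpina3k and Serpina3g. They were chosen by gene symbol and not by a cut on their levels, but with earlier results of these data known. They are 9 of the 55367 symbols in the deposited table. RNA-seq was made from whole frozen liver, and all mice were wild-type Balb/c, 6 weeks old. One group of 6 libraries, SAP 10 to SAP 15, came from mice with severe acute pancreatitis (SAP), labelled as treated with caerulein, a peptide that overstimulates the exocrine pancreas, and the other group of 6, control 3 to control 8, came from control mice. The design text speaks of a pair of mouse models, so the SAP libraries may not all come from 1 model, which the labels do not settle. The labels give no caerulein dose, time of sampling, treatment of the controls or number of animals behind a library, so the p-values measure only the spread between these libraries. Values are TPM (transcript abundance per length, relative to a common total in each library).

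Serpins are bait inhibitors: a flexible stretch near the carboxyl end, the reactive centre loop, is offered to a protease, and when the protease cuts the loop after the residue called P1 the serpin changes shape and traps the enzyme. Alpha-1-antitrypsin, a plasma protein made mainly by hepatocytes, is the chief inhibitor of neutrophil elastase in human, where it has a single gene, and in mouse it exists as several near-identical copies. The human SERPINA3 gene encodes alpha-1-antichymotrypsin, an acute phase protein, and the mouse carries an expanded family in its place, in which Serpina3n inhibits granzyme B, Serpina3k (contrapsin) inhibits trypsin and Serpina3g (Spi2A) is an intracellular inhibitor of cysteine cathepsins.

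The Serpina1 loops are shown because the P1 codon differs among these copies while most bases of the loop are shared. Other loop codons differ too, also between copies that share a P1 codon. Each is given 5′ to 3′ on the coding strand as read from the reference genome (GRCm38, C57BL/6J, not the Balb/c strain of the samples), starting at the hinge, with the P1 codon in capitals. Serpina1a lay at chr12:103853750-103853830, Serpina1b at chr12:103728317-103728397, Serpina1c at chr12:103895087-103895167, Serpina1d at chr12:103763755-103763835 and Serpina1e at chr12:103947093-103947173, all on the minus strand.
Serpina1a: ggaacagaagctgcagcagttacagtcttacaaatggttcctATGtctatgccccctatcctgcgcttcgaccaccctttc
Serpina1b: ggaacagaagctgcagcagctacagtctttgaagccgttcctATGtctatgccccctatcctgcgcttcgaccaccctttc
Serpina1c: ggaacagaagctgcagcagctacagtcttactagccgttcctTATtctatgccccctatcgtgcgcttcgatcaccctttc
Serpina1d: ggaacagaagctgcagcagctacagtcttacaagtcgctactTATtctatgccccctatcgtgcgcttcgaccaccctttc
Serpina1e: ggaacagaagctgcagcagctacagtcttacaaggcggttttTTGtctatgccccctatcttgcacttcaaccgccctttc
Serpina1a and Serpina1b carried the methionine codon ATG at P1, Serpina1c and Serpina1d the tyrosine codon TAT, and Serpina1e the leucine codon TTG. Over the 27 codons shown, the copies differed at between 4 codons (Serpina1a against Serpina1b) and 10 codons (Serpina1b against Serpina1e). Over the whole coding sequence, 1239 bases in each, the 10 Serpina1 pairs were 96.29% to 98.47% identical.

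The Serpina3 loops are shown because their bait stretches have diverged between shared ends. Capitals mark the stretch between the hinge and the conserved codons for phenylalanine, asparagine, arginine, proline and phenylalanine. All 4 genes lie on the plus strand, with the loop of Serpina3n at chr12:104413448-104413537, that of Serpina3m at chr12:104393769-104393858, that of Serpina3k at chr12:104345269-104345352 and that of Serpina3g at chr12:104241072-104241161.
Serpina3n: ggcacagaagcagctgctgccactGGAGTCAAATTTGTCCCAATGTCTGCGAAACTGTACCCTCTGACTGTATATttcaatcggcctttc
Serpina3m: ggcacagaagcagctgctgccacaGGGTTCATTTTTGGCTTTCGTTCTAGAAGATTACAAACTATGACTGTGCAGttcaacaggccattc
Serpina3k: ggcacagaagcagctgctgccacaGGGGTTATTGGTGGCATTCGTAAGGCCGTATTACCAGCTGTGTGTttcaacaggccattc
Serpina3g: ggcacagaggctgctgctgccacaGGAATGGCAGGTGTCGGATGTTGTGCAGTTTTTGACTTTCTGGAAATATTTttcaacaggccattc
The stretch in Serpina3k was the shortest, with a loop of 84 bases against 90 bases in the other 3 genes. The 6 Serpina3 pairs were 82.66% to 92.6% identical over their aligned coding bases, with Serpina3m and Serpina3k the closest pair. The coding sequence used for Serpina3g had 744 bases, against 1254 in the other 3 genes, so its pairs rest on fewer bases. The lowest value, of Serpina3k with Serpina3g, covers 640 bases. Between the clusters, identity over the 20 pairs was 65.02% to 70.18%, the highest being Serpina1a with Serpina3g over 721 bases.

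All 9 genes are annotated as protein-coding and lie on chromosome 12 (GENCODE M21, GRCm38), in blocks of 231 kb for Serpina1 and 178 kb for Serpina3 with 277 kb between them. The Serpina1 block holds Serpina1b at chr12:103728156-103830373, Serpina1d at chr12:103763594-103773592, Serpina1a at chr12:103853589-103863562, Serpina1c at chr12:103894926-103904887 and Serpina1e at chr12:103946931-103958975. The Serpina3 block holds Serpina3g at chr12:104236245-104241939, Serpina3k at chr12:104338486-104346144, Serpina3m at chr12:104338486-104394257 and Serpina3n at chr12:104406729-104414329. The annotated span of Serpina1b covers Serpina1d, and that of Serpina3m covers Serpina3k. No source used here says how the authors assigned reads that match more than 1 gene. Of the stretches of 100 bases in the reference transcripts, 60.98% of those of Serpina1a and 58.48% of those of Serpina1c also occur in another gene, against 29.34% for Serpina1d, 26.41% for Serpina1b and 18.23% for Serpina1e, so the split of reads among Serpina1 copies is uncertain. For Serpina3m, Serpina3k and Serpina3g the share was 6.094%, 4.852% and 4.636%, and for Serpina3n it was 0.2036%.

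In SAP livers the Serpina1 copies fell and the Serpina3 genes rose. All 5 Serpina1 members were called lower and all 4 Serpina3 members higher (limma on log2(TPM + 1), Benjamini-Hochberg adjusted p under 0.05 over 11335 tested genes), in a comparison that called 25.0% of all tested genes lower and 19.5% higher. That balance over all genes turned under rescaling, with 2784 higher and 2734 lower genes under TMM-like scaling and 2950 higher and 2591 lower under quantile normalization, while the members' counts were 4 higher and 5 lower under both. In 8 of the 9 members the SAP and control values did not overlap, the exception being Serpina3m, while over all tested genes every SAP value lay above every control value in 10.5% and below in 15.1%. The median log2 change was -1.46 over the Serpina1 members and 1.29 over the Serpina3 members, beside -0.03 over all genes tested. Because these are whole-liver samples, fewer cells of a type and less RNA per cell cannot be told apart.

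**Figure D1:**
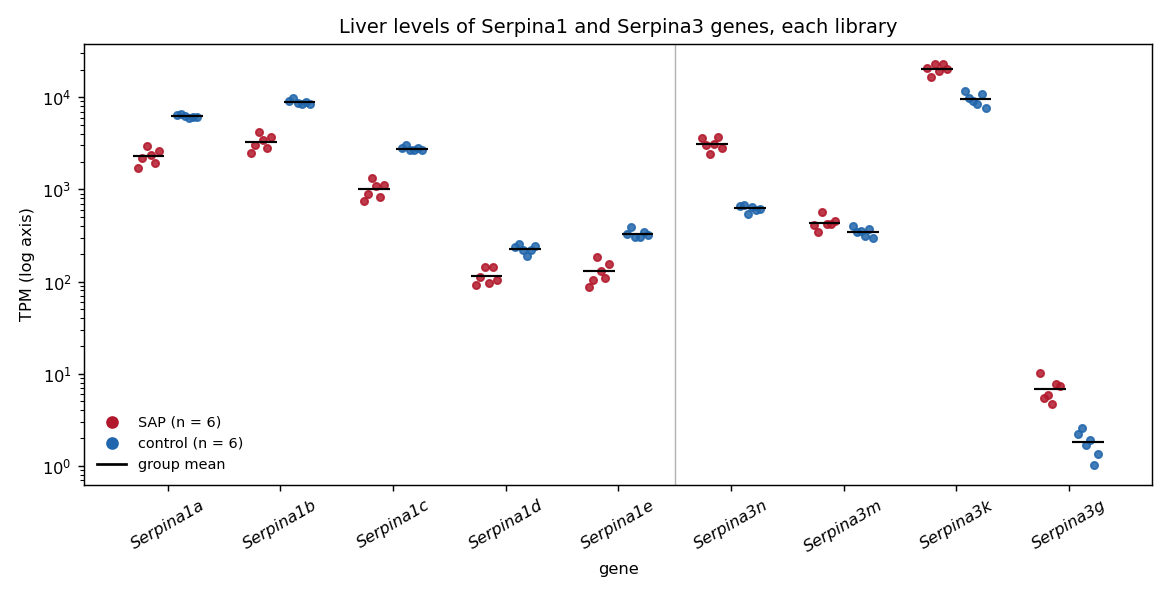
TPM (log axis) of each of the 9 genes in every library, with SAP (red, n = 6) left of control (blue, n = 6) for each gene and bars at the group means. The 5 Serpina1 genes lie lower in all SAP libraries and Serpina3n, Serpina3k and Serpina3g lie higher, whereas the Serpina3m values overlap.

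Serpina1b was the most abundant alpha-1-antitrypsin copy and ranked 42nd by level in SAP and 14th in control among the tested genes. Its lowest, median and highest levels were 2490, 3219 and 4226 TPM in SAP, against 8419, 8818 and 9726 TPM in control. Every SAP library lay below every control library. The means were 3280 ± 637 TPM in SAP and 8880 ± 498 TPM in control (SD, n = 6 each), which is 2.71-fold lower in SAP, and the log2 change was -1.46 ± 0.11 (SE; adjusted p = 5.97e-07 by limma).

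Serpina1a, the other copy with methionine at P1, had 1692, 2269 and 2949 TPM as its lowest, median and highest SAP values, against 5962, 6221 and 6640 TPM in control. Here too the groups were separate, with the highest SAP library far below the lowest control library. The means were 2283 ± 454 TPM in SAP and 6261 ± 244 TPM in control (SD, n = 6 each), 2.74-fold lower in SAP, and the log2 change was -1.48 ± 0.12 (SE; adjusted p = 5.50e-07 by limma).

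Serpina1c, with tyrosine at P1, ranged over 750, 986 and 1321 TPM (lowest, median, highest) in SAP, against 2644, 2730 and 3035 TPM in control, with no overlap. It fell 2.77-fold, to a mean of 1000.5 ± 214 TPM in SAP against 2775 ± 151 TPM in control (SD, n = 6 each), and the log2 change was -1.50 ± 0.12 (SE; adjusted p = 7.34e-07 by limma). Serpina1d and Serpina1e were the minor copies in both groups. Serpina1d, the second tyrosine copy, had 92.0, 108 and 145 TPM (lowest, median, highest) in SAP, against 190, 230 and 254 TPM in control. These groups were separate, and the means of 116 ± 23.9 TPM in SAP and 227 ± 23.0 TPM in control (SD, n = 6 each) differed 1.97-fold, and the log2 change was -0.99 ± 0.12 (SE; adjusted p = 2.59e-05 by limma), or -0.63 after quantile normalization (limma adjusted p = 0.00253). Serpina1e, the leucine copy, had 86.3, 120 and 185 TPM in SAP as lowest, median and highest values, against 301, 324 and 390 TPM in control. Its means of 129 ± 36.5 TPM in SAP and 332 ± 32.6 TPM in control (SD, n = 6 each) differed 2.58-fold with no overlap, and the log2 change was -1.40 ± 0.16 (SE; adjusted p = 9.94e-06 by limma).

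The Serpina1 copies were more variable between SAP libraries than between control libraries, and the same libraries stood at the ends for nearly every copy. The coefficient of variation was 19.4% to 28.3% in SAP and 3.90% to 10.1% in control over the 5 copies. SAP 10 was the lowest SAP library for all 5 copies, and SAP 12 was the highest for all but Serpina1d, whose highest was SAP 14 at 145.42 TPM with SAP 12 next at 144.89 TPM. Control 4 was the highest control library for all 5. A test of the difference in spread was not made.

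Serpina3n, the granzyme B inhibitor, had the largest change of the 9 genes and ranked 51st among the 11335 genes by size of increase. Its lowest, median and highest levels were 2416, 3037 and 3686 TPM in SAP, against 539, 625 and 675 TPM in control. The lowest SAP library stood far above the highest control library. The means were 3097 ± 484 TPM in SAP and 621 ± 51.1 TPM in control (SD, n = 6 each), 4.99-fold higher in SAP, and the log2 change was 2.31 ± 0.10 (SE; adjusted p = 3.42e-09 by limma). By level it ranked 44th in SAP and 213th in control.

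Serpina3k, the trypsin inhibitor, was the most abundant member in both groups, the 7th gene by level in SAP and the 12th in control. Its lowest, median and highest levels were 16767, 20296 and 22948 TPM in SAP, against 7674, 9488 and 11560 TPM in control, with no overlap. The means were 20384 ± 2305 TPM in SAP and 9606 ± 1480 TPM in control (SD, n = 6 each), 2.12-fold higher in SAP, and the log2 change was 1.09 ± 0.11 (SE; adjusted p = 6.15e-06 by limma). Quantile normalization lowered that change to 0.69, still past the threshold (limma adjusted p = 1.77e-04).

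Serpina3g, the intracellular cathepsin inhibitor, was the rarest member, at 4.69, 6.64 and 10.14 TPM (lowest, median, highest) in SAP, against 1.02, 1.80 and 2.58 TPM in control. Even so, all SAP libraries lay above all control libraries. The means of 6.87 ± 1.96 TPM in SAP and 1.80 ± 0.572 TPM in control (SD, n = 6 each) differed 3.83-fold, with a log2 change of 1.48 ± 0.17 on the log2(TPM + 1) scale, which understates changes at such levels (SE; limma adjusted p = 1.63e-05).

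Serpina3m moved least. It had 340, 424 and 570 TPM (lowest, median, highest) in SAP, against 295, 347 and 404 TPM in control. The groups overlapped, with SAP 11 below control 3, 4, 5 and 7. The means of 436 ± 75.4 TPM in SAP and 346 ± 39.5 TPM in control (SD, n = 6 each) differed 1.26-fold, and the log2 change was 0.32 ± 0.11 (SE; adjusted p = 0.0300 by limma). The call was lost in 8 of 24 other settings, among them the omission of SAP 12 (0.24, limma adjusted p = 0.0507), SAP 15 (0.31, 0.0551), control 4 (0.32, 0.0508), control 6 (0.30, 0.0643) or control 8 (0.28, 0.0685). Quantile normalization gave a larger change of 0.64 (limma adjusted p = 4.26e-04).

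Added together, Serpina3 outweighed Serpina1 in every SAP library, and Serpina1 outweighed Serpina3 in every control library. The Serpina1 sum was 6808 ± 1345 TPM in SAP, over a range of 5110 to 8826 TPM, against 18476 ± 909 TPM in control, over a range of 17520 to 20045 TPM (SD, n = 6 each). For the 4 Serpina3 members the sum was 23924 ± 2439 TPM in SAP and 10575 ± 1534 TPM in control. In each library the Serpina3 sum divided by the Serpina1 sum came to 2.91 to 4.81 in SAP, with a mean of 3.63 ± 0.856, and to 0.481 to 0.668 in control, with a mean of 0.571 ± 0.0708. All 9 members together took 3.09 ± 0.283% of library TPM in SAP and 2.92 ± 0.222% in control (SD, n = 6 each), and these ranges overlapped. These sums are descriptions of the chosen genes and were not tested.

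Within Serpina1, the proportions of the main copies in the deposited TPM were nearly the same in both groups. Since the split of reads among the copies is uncertain, the proportions of the transcripts may differ from these. Serpina1b held 48.2 ± 0.354% of the Serpina1 sum in SAP and 48.1 ± 0.549% in control, Serpina1a 33.5 ± 0.612% in SAP and 33.9 ± 0.690% in control, and Serpina1c 14.7 ± 0.423% in SAP and 15.0 ± 0.164% in control (SD, n = 6 each). By P1 residue, the methionine copies made up 81.7 ± 0.429% in SAP and 82.0 ± 0.253% in control, and the tyrosine copies 16.4 ± 0.350% in SAP and 16.2 ± 0.172% in control. Serpina1d was the copy whose share differed most, at 1.74 ± 0.423% in SAP and 1.23 ± 0.0962% in control. Its shares overlapped, with SAP 13 (1.36%) and SAP 15 (1.34%) below control 8 (1.37%). The highest share was that of SAP 14, at 2.50%. Serpina1e held 1.87 ± 0.175% in SAP and 1.79 ± 0.0988% in control.

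Ratios of abundant members within a library hardly depend on how that library is scaled, so the 16 pairs within a cluster were compared as ratios of TPM + 1 by an exact two-sided permutation test over all regroupings of the libraries, whose smallest possible p is 0.00216, adjusted over the 16 pairs. In all, 8 pairs differed, 3 of the 10 Serpina1 pairs and 5 of the 6 Serpina3 pairs. The log2 ratio of Serpina1a to Serpina1b differed by -0.02 ± 0.02 (SE; 95% interval -0.072 to 0.03, adjusted exact p = 0.406), and that of Serpina1a to Serpina1c by 0.02 ± 0.03 (interval -0.046 to 0.084, adjusted exact p = 0.574). These intervals are narrow for the deposited TPM. They do not bound the difference between the transcripts, because the split of reads among Serpina1 copies is uncertain. All 3 Serpina1 pairs past the threshold involved Serpina1d, whose decrease was the smallest of the 5. Its ratio to Serpina1a was higher in SAP, the log2 ratio of Serpina1a to Serpina1d differing by -0.49 ± 0.14 (interval -0.812 to -0.198, adjusted exact p = 0.00577) with no overlap between groups. Against Serpina1d, Serpina1b differed by -0.47 ± 0.14 and Serpina1c by -0.51 ± 0.15 (adjusted exact p = 0.0130 each), and in both pairs the groups overlapped. The fourth Serpina1d pair, with Serpina1e, differed by 0.41 ± 0.16 and missed the threshold narrowly (interval 0.032 to 0.794, adjusted exact p = 0.0500241). Intervals are not adjusted over the 16 pairs, so an interval can exclude 0 where the adjusted p does not pass. For the other 3 pairs with Serpina1e the intervals reached from -0.238 at the lowest to 0.086 at the highest. That of Serpina1b to Serpina1c was 0 to 0.076.

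The Serpina3 members moved apart from one another. Serpina3n gained on Serpina3m by 1.98 ± 0.19 in log2 ratio (interval 1.566 to 2.364), on Serpina3k by 1.21 ± 0.15 (interval 0.884 to 1.536) and on Serpina3g by 0.82 ± 0.16 (interval 0.47 to 1.174). Serpina3m changed relative to Serpina3k by -0.77 ± 0.07 (interval -0.928 to -0.614) and relative to Serpina3g by -1.16 ± 0.22 (interval -1.654 to -0.678). In these 5 pairs the groups were separate (adjusted exact p = 0.00577 each). Serpina3k to Serpina3g differed by -0.39 ± 0.19 and did not pass (interval -0.822 to 0.006, adjusted exact p = 0.0850). Ratios to the rare Serpina3g depended on the pseudocount: with 0.1 in place of 1, Serpina3n to Serpina3g differed by 0.42 and no longer passed (adjusted exact p = 0.126), Serpina3k to Serpina3g differed by -0.80 and passed (adjusted exact p = 0.0130), and Serpina3m to Serpina3g differed by -1.57 (adjusted exact p = 0.00693). As shares of the 4-member sum, Serpina3n made up 13.0 ± 2.06% in SAP and 5.96 ± 0.861% in control, Serpina3k 85.1 ± 1.85% in SAP and 90.7 ± 0.933% in control, and Serpina3m 1.82 ± 0.238% in SAP and 3.29 ± 0.167% in control (SD, n = 6 each).

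**Figure D2:**
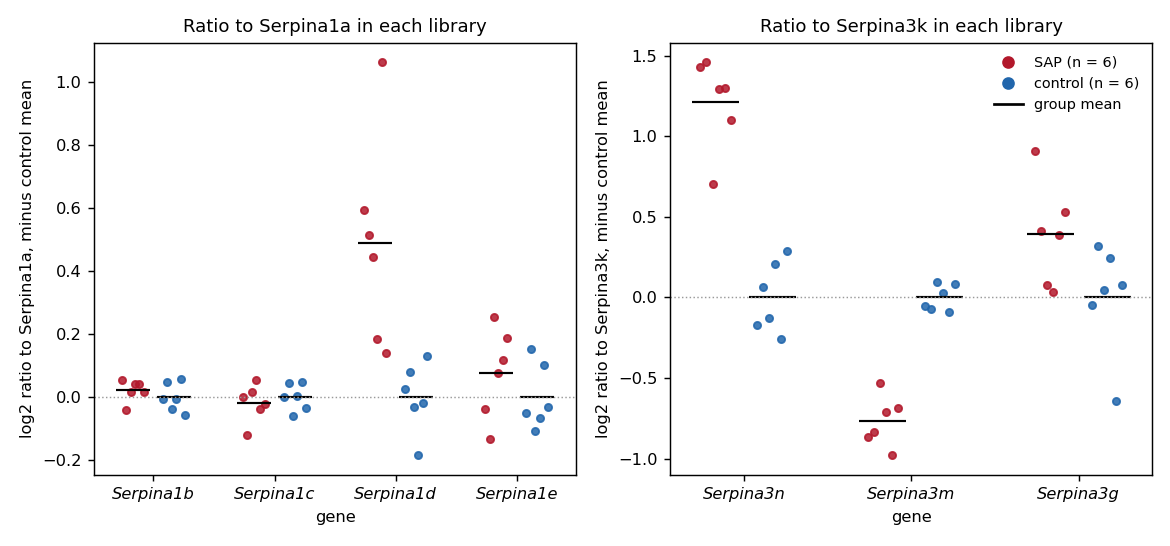
Log2 ratio, on TPM + 1, of each member to Serpina1a (left) or Serpina3k (right) in every library, minus the control mean, with SAP (red, n = 6) left of control (blue, n = 6) and bars at group means. Serpina1b, Serpina1c and Serpina1e stay near 0 in SAP while Serpina1d lies above, and Serpina3n and Serpina3m part to either side of Serpina3k.

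Among the SAP libraries, Serpina3n tended to be higher where Serpina1 was lower. Levels of the other 8 members were set against Serpina1a within each group by an exact permutation test on log2(TPM + 1), adjusted over the 16 relations. In SAP (n = 6), Serpina1b followed Serpina1a with r = 0.99 (exact p = 0.00278, adjusted 0.0222; rho = 1.0, adjusted exact p = 0.0222) and r = 0.98 without the 2 libraries farthest from the median. Serpina1c followed with r = 0.98 (exact p = 0.00139, adjusted 0.0222; rho = 1.0, adjusted exact p = 0.0222) and r = 0.95 without them, and Serpina1e with r = 0.96 (exact p = 0.00556, adjusted 0.0296; rho = 0.94, adjusted exact p = 0.0889) and r = 0.86 without them. Serpina1d did not follow, with r = 0.33 (exact p = 0.517, adjusted 0.551; rho = 0.26, adjusted exact p = 0.702) and r = -0.88 without the 2. This copy is also the one whose ratio to the others differed between the groups. With the split of reads among Serpina1 copies uncertain, relations between copies describe the deposited TPM only.

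Serpina3n ran the other way in SAP, with r = -0.95 (n = 6, exact p = 0.00972, adjusted 0.0389; rho = -0.89, exact p = 0.0333, adjusted 0.133). Without SAP 10 and SAP 12, the libraries at the ends, r was -0.93 over the other 4, all of them low in the nuclear RNA Malat1 (described last). By rank the relation did not pass after adjustment. In control r was 0.42 (n = 6, exact p = 0.4125, adjusted 0.508; rho = 0.49, adjusted exact p = 0.474) and 0.48 without the 2 farthest libraries, and the difference between the groups was not tested. For Serpina3m, Serpina3k and Serpina3g the SAP values were r = 0.64 (exact p = 0.151, adjusted 0.242; rho = 0.83), 0.08 (exact p = 0.886, adjusted 0.886; rho = -0.09) and -0.62 (exact p = 0.189, adjusted 0.275; rho = -0.54), and 0.35, -0.36 and -0.20 without the 2. No relation in control passed adjustment.

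**Figure D3:**
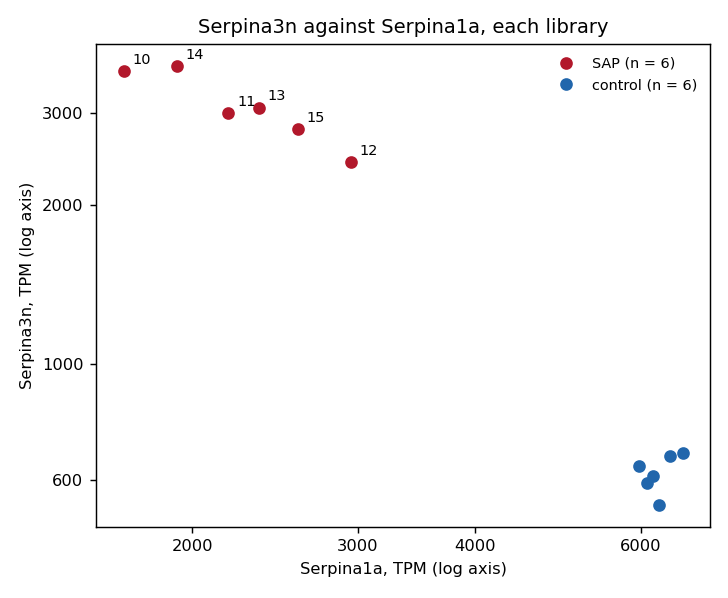
Serpina3n against Serpina1a in TPM (log axes), 1 point a library, with SAP libraries in red and numbered (n = 6) and control libraries in blue (n = 6). The groups occupy opposite corners, and within SAP Serpina3n tends to be higher where Serpina1a is lower, though SAP 14 has the highest Serpina3n while SAP 10 has the lowest Serpina1a.

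The genes whose deviations from the group means were most like those of the Serpina1 sum over the 12 libraries were Pdk2, a kinase that restrains pyruvate dehydrogenase (r = 0.91), the carboxylesterase Ces3a (r = 0.90) and the mitochondrial complex III assembly factor Uqcc3 (r = 0.90). For Serpina3n they were Gm20498 (r = 0.90), the ferritin receptor Scara5 (r = 0.87) and Serpina3h (r = 0.86), a neighbour annotated as a pseudogene. These are descriptions, with no p.

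Along chromosome 12 the lower Serpina1 block lay between the higher Serpina11 and, as nearest tested gene on the other side, the lower Serpina6. The annotation places 28 clade A serpin genes on this chromosome, of which 20 were tested. Of these 14 were higher and 6 lower in SAP. Apart from the members, 10 of 11 tested genes were higher and 1, Serpina6, was lower. Over all tested genes 19.5% were called higher and 25.0% lower. Serpina12 and Serpina4-ps1 did not exceed 0.70 and 0.33 TPM in any control library. They were tested only through their SAP values, which set their direction beforehand. Serpina4-ps1, Serpina3e-ps, Serpina3h and Serpina3l-ps are annotated as pseudogenes. Serpina11, which flanks Serpina1e, averaged 419 ± 19.8 TPM in SAP and 216 ± 28.4 TPM in control (SD, n = 6 each), a log2 change of 0.97 (limma adjusted p = 1.48e-06). Beyond Serpina1b, past 2 genes too low to test, lay Serpina6, the corticosteroid-binding globulin, at 92.1 ± 53.3 TPM in SAP and 638 ± 93.7 TPM in control, a change of -3.07 ± 0.41 in log2 (SE; adjusted p = 5.44e-05 by limma).

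**Figure D4:**
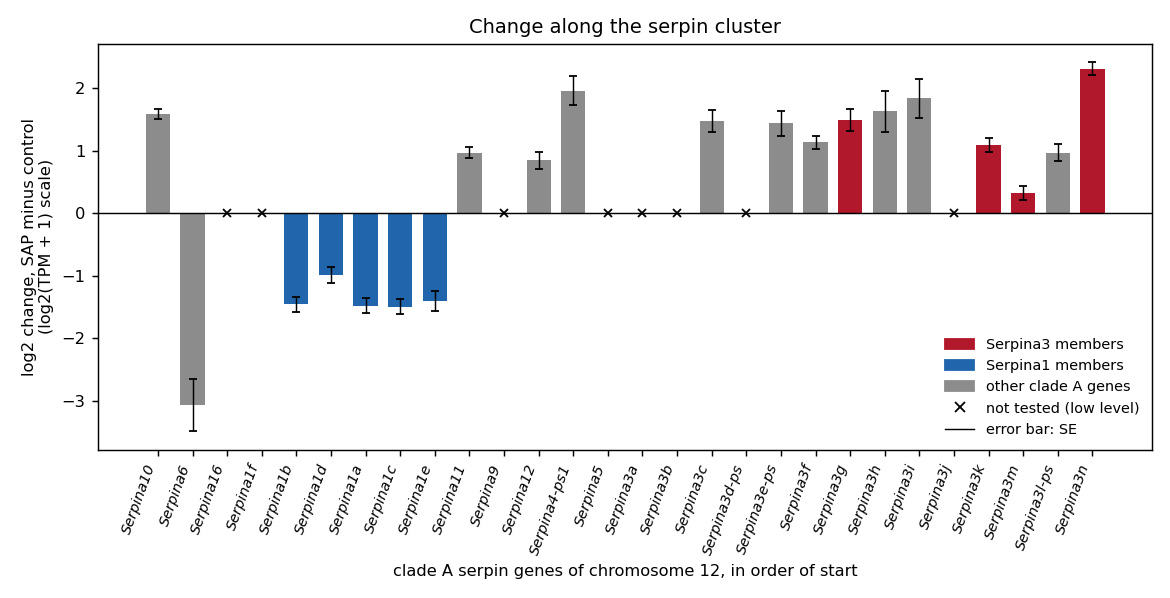
Log2 change, SAP minus control, on the log2(TPM + 1) scale (bars, SE) for the 28 clade A serpin genes of chromosome 12 in order of their start. The 5 Serpina1 members (blue) and Serpina6 point down, the Serpina3 members (red) and the other tested genes (grey) point up, and crosses mark genes too low to test.

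Promoter sequences from RefSeq (GRCm38.p6) were held for 7 of the 9 members, not for Serpina3m and Serpina3k. That of Serpina3n is shown because it rose most, as the 250 bases before its start, at chr12:104406458-104406707 on the plus strand, with capitals at the matches to TTNCNNNAA, a relaxed STAT motif.
Serpina3n: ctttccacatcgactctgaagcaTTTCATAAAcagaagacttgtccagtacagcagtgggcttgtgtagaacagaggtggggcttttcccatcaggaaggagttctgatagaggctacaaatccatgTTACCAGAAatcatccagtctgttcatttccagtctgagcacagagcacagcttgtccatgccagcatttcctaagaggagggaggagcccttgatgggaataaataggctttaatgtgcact
Over 250 bases before the start and on both strands, TTNCNNNAA, which 32.9% of 32851 mouse promoters hold, had 2 matches in Serpina3n, 1 in Serpina3g and 0 in the Serpina1 promoters. The palindrome TTCNNNGAA (7.02% of promoters) was found in Serpina3g alone, at the same place as its TTNCNNNAA match, 33 bases before the start. The C/EBP motif TTGCNNAA (9.56% of promoters) occurred once each in Serpina1b, Serpina1d and Serpina1e, and the NF-kB motif (14.9% of promoters) once in each of the 7. A missing match says only that these letters are not in this window.

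Other clade A serpins outside the 9 members mostly rose. Of 16 listed, 10 were tested, 9 were higher and 1 lower, with a median log2 change of 1.53. Apart from Serpina7, the tested ones are among the chromosome 12 genes counted above, so this is not a separate result. Serpina10, the protein Z-dependent protease inhibitor, averaged 543 ± 66.3 TPM in SAP and 180 ± 14.5 TPM in control (SD, n = 6 each), a log2 change of 1.58 (limma adjusted p = 1.76e-08), and Serpina3f 182 ± 22.7 TPM in SAP and 83.1 ± 12.5 TPM in control, a change of 1.13 (limma adjusted p = 2.62e-06). Serpins of other clades were mixed, with 3 of 11 tested higher, 5 lower, 3 not past the threshold and a median of -0.32. The shares over all tested genes were 19.5% higher and 25.0% lower. Serpinc1 (antithrombin) fell to 1696 ± 214 TPM in SAP, against 3204 ± 91.8 TPM in control, a log2 change of -0.93 (limma adjusted p = 2.56e-06). Serpinf1, which encodes PEDF, changed by -1.28 and Serping1, the C1 inhibitor, by 0.96 (limma adjusted p = 7.74e-07 and 1.17e-06).

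Of 11 proteases listed as possible targets, 5 were tested, with 1 higher, 2 lower and 2 not past the threshold. For this and the next list, the shares over all tested genes were 19.5% higher and 25.0% lower. Prtn3, a neutrophil granule protease, rose to 21.5 ± 4.61 TPM in SAP, against 0.932 ± 0.720 TPM in control (SD, n = 6 each), a log2 change of 3.61 (limma adjusted p = 1.15e-07). The lysosomal cathepsin Ctsb fell by 0.72 on the log2 scale (limma adjusted p = 1.09e-04) and the plasma kallikrein gene Klkb1 changed by -1.16 (limma adjusted p = 0.00242). The 6 untested proteases, Elane (neutrophil elastase) and Gzmb (granzyme B) among them, did not exceed 0.84 TPM in any library. Among 8 tested inhibitors that are not serpins, 5 were higher, 2 lower and 1 not past the threshold. Of the higher ones, Timp1 and A2m stayed under 1 TPM in every control library and were tested only through their SAP values. Timp1, an inhibitor of metalloproteinases, averaged 12.1 ± 2.64 TPM in SAP and 0.293 ± 0.228 TPM in control (SD, n = 6 each; log2 change 3.34, limma adjusted p = 3.42e-09), Slpi, a secreted inhibitor of elastase, changed by 2.28 and Pzp by 0.72 (limma adjusted p = 4.21e-06 and 1.60e-06).

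The cytokine receptors, signal carriers and hepatic transcription factors listed were all tested. Of these 15, 6 were higher, 2 lower and 7 not past the threshold, with a median of 0.23. Over all tested genes, 19.5% were higher and 25.0% lower. Socs3, a feedback inhibitor induced by cytokines through STAT3, averaged 33.5 ± 13.5 TPM in SAP and 2.01 ± 0.589 TPM in control (SD, n = 6 each; log2 change 3.43, limma adjusted p = 3.39e-07). The interleukin-1 receptor gene Il1r1 rose by 1.59 and the oncostatin M receptor gene Osmr by 1.21 (limma adjusted p = 3.41e-05 and 5.97e-05). Osmr stayed under 1 TPM in every control library and was tested only through its SAP values. Hnf4a had a log2 change of 0.18, not past the threshold (limma adjusted p = 0.164). For the export and quality control of secreted proteins in the endoplasmic reticulum, all 13 listed genes were higher, with a median of 0.54. Derl3, a part of the degradation pathway, averaged 177 ± 25.7 TPM in SAP and 9.37 ± 6.16 TPM in control (SD, n = 6 each; log2 change 4.30, limma adjusted p = 3.16e-07). Calr, a chaperone, rose by 0.79 and Surf4, a cargo receptor, by 0.80 (limma adjusted p = 3.16e-07 and 3.75e-07).

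Cell type markers differed as well, and their part in the results above was not tested. Their counts stand beside 19.5% higher and 25.0% lower over all tested genes. The 5 hepatocyte markers in the table summed to 34970 to 48266 TPM in SAP and 73462 to 84705 TPM in control, with 1 higher (Apoa1, 0.24 in log2), 2 lower (Alb, -1.24, and Ttr, -1.23) and 2 not past the threshold (Apob, 0.14, and Hnf4a, 0.18). Alb alone averaged 27673 ± 4277 TPM in SAP and 65029 ± 4415 TPM in control (SD, n = 6 each), whereas Apoa1 averaged 11181 ± 593 TPM in SAP and 9504 ± 875 TPM in control (limma adjusted p = 0.0221). Neutrophil markers summed to 36.5 to 111 TPM in SAP and 4.32 to 17.3 TPM in control. Of these, 3 of 4 tested rose, S100a9 by 3.13, S100a8 by 2.93 and Retnlg by 1.39. The other 4 of the 8 listed did not exceed 0.89 TPM in any library and were not tested. Retnlg stayed under 1 TPM in every control library and was tested only through its SAP values. Macrophage markers summed to 96.5 to 229 TPM in SAP and 104 to 171 TPM in control, with 1 higher (Marco, 4.50), 3 lower (Vsig4, -0.72, Clec4f, -0.69, and Timd4, -0.59) and 2 not past the threshold. Endothelial sums were 80.1 to 111 TPM in SAP and 73.4 to 108 TPM in control, with 2 of 5 higher (Lyve1, 1.25, and Pecam1, 0.38) and Kdr among those not past the threshold (-0.17). For stellate cells the sums were 99.8 to 128 TPM in SAP and 100.4 to 121 TPM in control, with 3 of 5 higher (Col1a1, 0.60, and Dcn, 0.23, among them) and 1 lower (Reln, -1.22). Lymphocyte sums were 2.29 to 6.81 TPM in SAP and 2.21 to 4.25 TPM in control, where only Gzma was tested (0.87), and cholangiocyte sums 1.67 to 4.09 TPM in SAP and 2.28 to 3.45 TPM in control, where only Krt19 was tested (-0.30, not past the threshold). Pancreatic acinar markers, none of them tested, summed to 0.43 to 1.15 TPM in SAP and 0.37 to 9.31 TPM in control. No marker was at 0 in all libraries.

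Libraries also differed in Malat1 in a way that moved with the groups: 4 of the 5 libraries with low values were SAP. It was at 2.76 to 8.19 TPM in SAP 11, 13, 14 and 15 and control 5, and at 26.2 to 40.1 TPM in the other 2 SAP and 5 control libraries. Within the high Malat1 libraries the log2 changes were -1.49 for Serpina1a, -0.97 for Serpina1d, 2.21 for Serpina3n, 0.49 for Serpina3m, 1.17 for Serpina3k and 1.67 for Serpina3g. Within the low Malat1 libraries, where control 5 is the lone control and is assumed to vary like the others, they were -1.48, -0.97, 2.53, 0.22, 1.12 and 1.42. Serpina1b, Serpina1c and Serpina1e changed by -1.46, -1.49 and -1.40 within the high class and by -1.42, -1.45 and -1.31 within the low class. All 9 directions were kept in both classes, as were those of the 8 pairs whose ratio differed, and in the low class Serpina1d, Serpina3g and Serpina3m were not past the threshold (limma adjusted p = 0.0841, 0.0521 and 0.583).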

How the data were processed

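RNA-seq of mouse liver was deposited by the authors as 1 table of 55487 rows with 12 sample columns, all used, and 0 were left out. The values were read as TPM deposited by the authors. No header or label names the unit, and it was inferred from library sums of 993412 to 995793. edgeR is named without version or role, per the submitters' processing notes. No source used here names the aligner, build, annotation or strand setting. Depth cannot be recovered from TPM, is unknown, and allowed no counting interval. Of rows that repeat a symbol (120), the one with the highest median over the 12 libraries was kept.

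Genes reaching 1 TPM in 6 or more of the 12 libraries (11335) were fitted with limma 3.58.1 (R 4.3.3, empirical Bayes with trend) on log2(TPM + 1), with group as the only term. A gene under 1 TPM throughout 1 group could pass only through the other group, so its direction was set by the filter. Such genes are included in the counts. P-values are two-sided, adjusted with Benjamini-Hochberg over all tested genes at 0.05, and changes are SAP minus control. Ratios of members and relations between them were tested with exact permutation tests (numpy 2.4.6). The 95% intervals of the ratios come from inverting the test of each pair, without adjustment over the pairs. Malat1 classes were divided at 20 TPM. The fit was tested on simulated data. Figures were drawn with matplotlib 3.10.9. Positions and coding sequences come from GENCODE M21 on GRCm38.

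The members, the 14 lists (8 of markers) and the alternatives were chosen with earlier results of these data known. All members are named, and of each list the 3 tested genes with the smallest adjusted p. Elane, Gzmb, Apob, Hnf4a, Serpina6, Serpina12, Serpina4-ps1, Serpina3e-ps, Serpina3l-ps and Vsig4 were named after their values were seen. The value of 1 listed gene and the matches to 1 motif searched are not reported here.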

Additional observations from a re-analysis of the deposited data

Results flagged for a closer look

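Of 88 groups of 6 libraries examined (44 genes in SAP and in control), 7 had 1 library far from the others, with a gap past Dixon's 95% critical value, and none was of a Serpina1 or Serpina3 member. Chance alone gives about 1 in 20 such groups. Serpinc1 was at 1269.81 TPM in SAP 14, where the other SAP libraries lay between 1719.54 and 1840.15 TPM. Derl3 was at 226.91 TPM in SAP 14, against 157.99 to 178.78 TPM in the others. Marco stood at 76.63 TPM in SAP 10, against 34.11 to 49.09 TPM, and Gzma at 3.52 TPM in SAP 10, against 1.04 to 1.74 TPM. Among control libraries, Calr was at 814.13 TPM in control 7, where the others lay between 721.85 and 747.24 TPM, S100a8 at 6.24 TPM in control 3, against 1.11 to 2.78 TPM, and Gzma at 1.53 TPM in control 4, against 0.16 to 0.66 TPM. SAP 10 was also the SAP library with the lowest level of all 5 Serpina1 copies.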

How the results depend on the processing

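Of the 9 members, Serpina1a, Serpina1b, Serpina1c, Serpina1e, Serpina3n and Serpina3k kept their direction and call in all 24 alternatives, over ranges of -1.68 to -1.40, -1.76 to -1.38, -1.58 to -1.42, -1.51 to -1.05, 2.21 to 2.53 and 0.69 to 1.17 in log2. Serpina1d (-1.06 to -0.63) and Serpina3g (1.38 to 1.89 over 23) lost the call only among the low Malat1 libraries, and Serpina3m (0.22 to 0.64) lost it in 8, including no filter (limma adjusted p = 0.0682) and the omission of SAP 14 with control 5 (0.0548). With the low Malat1 libraries only, 159 genes were higher and 205 lower, against 2212 and 2832 in all libraries, and 2 members were higher. With the high Malat1 libraries only, 2041 genes were higher and 1829 lower. Both classes hold fewer samples. In them 0 pairs of members passed the exact permutation test after adjustment (9 at an unadjusted p under 0.05 in the high class, where the smallest possible p is 0.0476, and 0 in the low class, where it is 0.2). Leaving out 1 library gave 8 to 11 pairs, and a pseudocount of 0.1 gave 8, of which 7 were shared: Serpina3n to Serpina3g was lost and Serpina3k to Serpina3g gained. The median change of all genes was -0.03 as deposited and 0.02 after either rescaling. No paired analysis was possible because the groups share no replicate numbers. Alternatives for counts were not run on TPM.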

Other observations

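Serpina7, the thyroxine-binding globulin, is a clade A serpin encoded apart from the chromosome 12 cluster, and it rose to 90.6 ± 27.5 TPM in SAP, against 24.7 ± 10.7 TPM in control (SD, n = 6 each; log2 change 1.86, limma adjusted p = 3.63e-05). Among broad protease inhibitors outside the serpins, Mug1, a murinoglobulin, fell to 457 ± 121 TPM in SAP, against 1009 ± 210 TPM in control (log2 change -1.15, limma adjusted p = 1.53e-04). A2m was at 4.42 ± 3.46 TPM in SAP and 0.0117 ± 0.0147 TPM in control (log2 change 2.22, limma adjusted p = 4.66e-05). A2m did not exceed 0.04 TPM in any control library and was tested only through its SAP values. Of the transcription factors and receptors listed, Stat3 rose by 0.66 (limma adjusted p = 8.50e-05), while Cebpb fell by 0.69 and the interleukin-6 receptor gene Il6ra by 0.54 (limma adjusted p = 0.0276 and 0.0249). These genes were chosen after their values were seen.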
